A study of Mus musculus with 40 samples.

Results

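A set of 10 genes of segmentation and somite formation were followed across whole E9.5 mouse embryos: the oscillator and Notch genes Hes7, Lfng and Dll3, the segment boundary genes Mesp2 and Ripply2, the posterior somite gene Uncx, and the somite transcription factors Meox1, Meox2, Tcf15 and Myf5. They were chosen by gene symbol, are 10 of the 26411 genes in the count files, and each symbol matched 1 gene. RNA was sequenced from 24 single embryos, 4 of each of 6 genotypes. WT embryos were wild type at Kat6a and Kat6b, which encode lysine acetyltransferases. Kat6a-/- embryos carried the cfd/cfd alleles and Kat6b-/- embryos the dec/dec alleles, germline null alleles lacking a block of exons, with the other gene wild type. Kat6aE/E embryos were G656E/G656E and Kat6bE/E embryos G577E/G577E, single amino acid changes in the acetyltransferase domain present in every cell, and Kat6aE/E;Kat6bE/E embryos were homozygous for both. All embryos were male, came from a C57BL/6 background and had been picked for a similar external appearance, so a genotype with delayed embryos would be represented by its better developed ones. The same genes were also read in 16 libraries of E14.5 fetal liver LSK cells, which are blood stem and progenitor cells, 4 each of WT, Kat6aE/E, Kat6bE/E and Kat6aE/E;Kat6bE/E.

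Somites are blocks of paraxial mesoderm that bud off in sequence from the presomitic mesoderm and give rise to the vertebrae, ribs, skeletal muscle and dermis of the back. The pace is set by an oscillator in which HES7 represses its own gene and Lfng, while Wnt and FGF signals from the tail bud hold cells in the immature state. At the determination front TBX6 and Notch signalling switch on Mesp2, Ripply2 then ends that activity, and each new somite is divided into an anterior compartment, marked by Tbx18, and a posterior compartment, marked by Uncx.

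Each of the 10 genes is protein coding in GENCODE on the GRCm39 assembly, the build of the count files. Uncx spans chr5:139529249-139533934 on the plus strand and Lfng chr5:140593075-140601300 on the plus strand, so that 1.06 Mb and 15 protein-coding genes lie between them. Hes7 lies at chr11:69011230-69014881 on the plus strand and Meox1 at chr11:101768336-101785227 on the minus strand. Dll3 lies at chr7:27992978-28001673 on the minus strand and Mesp2 at chr7:79460475-79463187 on the plus strand. Ripply2 is at chr9:86897590-86902492, Meox2 at chr12:37158533-37229533 and Tcf15 at chr2:151985474-151991034, all on the plus strand, and Myf5 is at chr10:107318769-107321995 on the minus strand. Promoters were available from RefSeq for 8 of the 10 genes, and each matched GRCm39 exactly once. The 3 given here are those of the oscillator genes Lfng and Hes7, which carried motifs read by the Notch effector RBPJ (CSL, TGGGAA) and by HES repressors (N box, CACNAG), and that of Ripply2, which carried the only T-box motif (GGTGTGA). They lie at chr5:140592846-140593074, chr11:69011029-69011229 and chr9:86897340-86897589, all on the plus strand, and stop before the annotated start of transcription. Capitals mark CSL and N box letters in Lfng and Hes7 and the T-box motif in Ripply2, in either orientation.
Lfng: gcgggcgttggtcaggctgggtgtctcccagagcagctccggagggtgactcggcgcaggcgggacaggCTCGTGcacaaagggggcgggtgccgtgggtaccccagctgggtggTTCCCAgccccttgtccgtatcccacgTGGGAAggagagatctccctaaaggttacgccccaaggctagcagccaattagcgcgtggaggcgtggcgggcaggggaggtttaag
Hes7: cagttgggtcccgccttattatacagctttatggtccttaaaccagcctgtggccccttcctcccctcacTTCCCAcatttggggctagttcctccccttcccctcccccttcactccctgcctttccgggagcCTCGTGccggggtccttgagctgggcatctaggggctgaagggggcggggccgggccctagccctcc
Ripply2: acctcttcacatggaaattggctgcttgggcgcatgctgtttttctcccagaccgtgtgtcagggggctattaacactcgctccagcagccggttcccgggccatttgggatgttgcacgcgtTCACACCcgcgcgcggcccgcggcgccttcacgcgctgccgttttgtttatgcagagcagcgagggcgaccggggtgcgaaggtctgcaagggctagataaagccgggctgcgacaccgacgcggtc
In windows from 250 bases before to 50 bases after the RefSeq start, searched on both strands, Lfng held 2 CSL matches, which began 135 and 108 bases before the start, and 1 N box at 181 bases. The CSL match at 108 bases shared 2 bases with an E box (CANNTG). Hes7 held 1 CSL match at 180 bases and 1 N box at 116 bases, and the Ripply2 match began 127 bases before the start. Of the promoters not printed, Meox2 also held 1 CSL match and 1 N box, and Myf5 held 1 CSL match. CSL letters were found in 4 of the 8 promoters against 25.6% of all 32851 RefSeq promoters, the N box in 3 against 42.5%, the E box in 7 against 72.3% and the T-box motif in 1 against 3.98%. These are matches of letters only.

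Sequencing depth was 8401990 to 23339359 read pairs assigned to genes per embryo, with a median of 15317052.5. Values are given as CPM, counts scaled to the effective size of each library by TMM normalisation, and genes were compared with each other only as CPM per kilobase of gene length. On that scale, averaged over the 24 embryos, Meox1 was the most abundant of the 10 at 39.1, followed by Lfng at 21.4, Tcf15 at 16.6, Dll3 at 10.4, Uncx at 5.66, Meox2 at 4.56, Hes7 at 2.33, Myf5 at 1.68, Mesp2 at 0.353 and Ripply2 at 0.26. The spread between embryos differed widely between the genes. The coefficient of variation of CPM over the 24 embryos was 9.95% for Lfng and between 15.6% and 30.3% for Tcf15, Dll3, Meox1, Meox2, Myf5 and Uncx, but 72.0% for Hes7, 94.5% for Mesp2 and 87.1% for Ripply2. Mesp2 rested on 2 to 44 read pairs per embryo and Ripply2 on 0 to 17, and Ripply2 was removed by the filter on low counts, leaving 9 of the 10 genes in the fit across 14183 genes. All sclerotome, Notch, cardiac, neural, erythroid and endothelial marker genes listed had reads in all 24 embryos. Gene-level Kat6a and Kat6b counts did not check the deletions, since the deleted exons are only part of each gene: Kat6a was 166 ± 4.65 CPM in Kat6a-/- against 176 ± 8.79 in WT (SD, n = 4 each) and Kat6b was 54.5 ± 2.75 CPM in Kat6b-/- against 40.5 ± 2.51 in WT.

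A group of 5 embryos stood apart in Tbx6, T and Msgn1, namely WT replicates 1 and 4, Kat6aE/E replicates 2 and 4 and Kat6bE/E replicate 3. They were taken by Tbx6 under 2 CPM, a limit chosen after seeing the data. Tbx6, the T-box factor of presomitic mesoderm, was at 0.59 to 1.41 CPM in these 5 embryos and at 3.74 to 11.8 CPM in the other 19. T (Brachyury), which marks the tail bud and notochord, was at 1.21 to 4.67 CPM against 9.3 to 33.1 CPM, and Msgn1, a presomitic bHLH gene, was at 0 to 0.605 CPM against 1.52 to 6.97 CPM. None of these ranges overlapped, which for Tbx6 followed from the limit. Hes7 went with them, at 0.363 to 1.21 CPM in the 5 embryos and 2.06 to 13.1 CPM in the rest. Other genes of the tail bud did overlap. Cyp26a1 was at 6.94 to 11.4 CPM in the 5 embryos and 10.9 to 25.2 CPM in the rest, and Fgf8 and Wnt3a overlapped too. Lfng was at 52.8 to 57.5 CPM in the 5 embryos and 39.1 to 54.3 CPM in the rest, while the ranges of Uncx, Meox2, Tcf15 and Myf5 in the 5 embryos lay inside those of the others and Meox1 reached lower, to 51.8 CPM in 1 of them. No embryo of Kat6a-/-, Kat6b-/- or Kat6aE/E;Kat6bE/E belonged to the 5, whereas 2 of the 4 WT embryos did. Results that rest on these embryos are given with and without them, the latter with 2 WT, 2 Kat6aE/E and 3 Kat6bE/E embryos left.

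**Figure D1:**
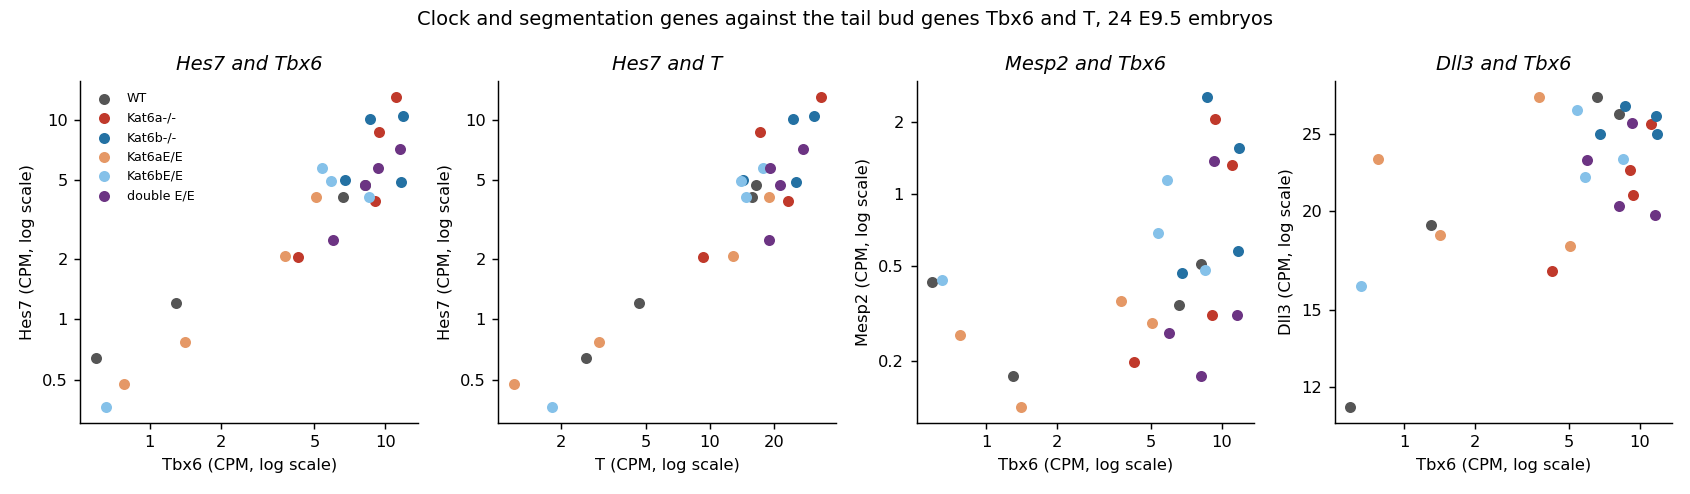
CPM of Hes7, Mesp2 and Dll3 (vertical) against Tbx6 or T (horizontal), all axes on a log scale, with 1 point per E9.5 embryo coloured by genotype (n = 24, double E/E is Kat6aE/E;Kat6bE/E). The 5 embryos, 2 of them WT, lie below 1.5 CPM of Tbx6 and have the lowest Hes7, at 0.363 to 1.21 CPM.

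Hes7 encodes the transcriptional repressor at the core of the oscillator. Its level was 1.21, 4.12, 4.74 and 0.643 CPM in the WT embryos, 13.1, 2.06, 3.91 and 8.71 CPM in Kat6a-/-, 10.1, 4.88, 4.99 and 10.5 CPM in Kat6b-/-, 2.08, 0.474, 4.12 and 0.771 CPM in Kat6aE/E, 4.92, 5.74, 0.363 and 4.1 CPM in Kat6bE/E, and 4.72, 5.71, 2.49 and 7.1 CPM in Kat6aE/E;Kat6bE/E. The Kat6b-/- embryos were all above the WT embryos, though the 2 lowest Kat6b-/- values were close to the highest WT values, and the other genotypes overlapped WT. The ratio of group means was 1.51 on the log2 scale for Kat6b-/- over WT, and the exact two-sided permutation test gave p = 0.0286, the smallest value that 4 against 4 embryos allow. In the fit across all genes the log2 fold change was 0.83 ± 0.45 (SE) with FDR = 0.484, so Hes7 was not called. Both low WT embryos were among the 5 with little Tbx6 and T, and without the 5 the fitted difference was 0.26 ± 0.54 (SE, FDR = 0.937). Between Kat6aE/E and Kat6a-/- the fitted Hes7 difference was -1.09 ± 0.50 (SE) with FDR = 0.307 and the ratio of group means -1.90. With single embryos left out the fitted value ran from -1.67 (without Kat6aE/E replicate 3) to -0.83, and without surrogate variables it was -2.17. Without the 5 embryos, 2 of which were Kat6aE/E, it was -0.86 with FDR = 0.572, and none of these fits called it.

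Lfng encodes a glycosyltransferase that modifies Notch receptors, and it is expressed both in presomitic mesoderm and in the neural tube. It was at 57.5, 52.5, 54.3 and 54.1 CPM in WT and at 45.2, 45.7, 39.1 and 44.0 CPM in Kat6a-/-, with no overlap. Lfng fell in Kat6a-/- by 0.30 ± 0.06 (SE) on the log2 scale, to 0.81 of the WT level (FDR = 0.00745, limma moderated test). In a bulk sample fewer expressing cells and less RNA per cell cannot be told apart, here and below. Kat6b-/- embryos were at 41.1, 47.4, 44.1 and 46.9 CPM and also did not overlap WT, with a log2 fold change of -0.25 ± 0.06 (SE) that did not pass the threshold (FDR = 0.061). Kat6aE/E;Kat6bE/E embryos were at 48.6, 47.1, 50.7 and 42.1 CPM, all below WT, with -0.18 ± 0.06 (SE) and FDR = 0.103. Kat6aE/E embryos were at 47.3, 52.8, 47.8 and 52.8 CPM and Kat6bE/E embryos at 50.4, 54.2, 55.6 and 50.2 CPM, and both overlapped WT. The fitted differences were -0.13 ± 0.06 (SE, FDR = 0.456) and -0.06 ± 0.06 (SE, FDR = 0.998). Without the 5 embryos low in Tbx6 the Kat6a-/- estimate was -0.30 with FDR = 0.0759, so the size was kept and the call was lost with 2 WT embryos remaining. Leaving out any single embryo left Lfng called in Kat6a-/-. Within litters, the Kat6a-/- embryo at 45.7 CPM had a WT littermate at 57.5, the Kat6b-/- embryo at 47.4 CPM a WT littermate at 54.3, and the Kat6aE/E embryo at 47.3 CPM a WT littermate at 52.5. Kat6bE/E and Kat6aE/E;Kat6bE/E embryos had no WT littermate, so genotype and litter cannot be told apart for them. The summed CPM of 12 neural genes was 963 to 1100 in WT. Like Lfng, it lay below WT in all embryos of Kat6a-/- (621 to 944), Kat6b-/- (697 to 945) and Kat6aE/E;Kat6bE/E (821 to 942). It overlapped WT in Kat6aE/E (890 to 1150) and Kat6bE/E (885 to 1088). Of these 12 genes, 4 were called lower in Kat6a-/-, 1 in Kat6b-/- and 0 in Kat6aE/E;Kat6bE/E, where 2 had an unadjusted p under 0.05. The part of the neural RNA in the Lfng result was not tested.

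Dll3 encodes a divergent Delta protein needed for regular segments. Its level was 19.2, 27.9, 26.5 and 11.3 CPM in WT and 16.8 to 25.8 in Kat6a-/-, 25 to 27.1 in Kat6b-/-, 18.1 to 27.9 in Kat6aE/E, 16.1 to 26.8 in Kat6bE/E and 19.7 to 25.8 in Kat6aE/E;Kat6bE/E. Every genotype overlapped WT, whose own embryos held both the lowest and the highest value of the 24. The largest fitted difference was 0.29 ± 0.15 (SE) in Kat6b-/- with FDR = 0.449, and the 95% confidence interval in Kat6a-/- ran from -0.38 to 0.26 and in Kat6aE/E;Kat6bE/E from -0.29 to 0.36.

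Mesp2 encodes the bHLH factor that places the segment boundary and is expressed in a narrow stripe that comes and goes with each cycle. It was at 0.173, 0.343, 0.507 and 0.429 CPM in WT, corresponding to 2, 4, 6 and 8 read pairs. Kat6b-/- embryos were at 2.55, 0.577, 0.466 and 1.56 CPM and Kat6a-/- embryos at 1.32, 0.199, 0.313 and 2.06 CPM, and both overlapped WT. The fitted log2 differences were 0.83 ± 0.54 (SE, FDR = 0.572) and 0.82 ± 0.55 (SE, FDR = 0.49). In Kat6aE/E;Kat6bE/E, 1 embryo was at 1.38 CPM and the other 3 between 0.173 and 0.311 CPM. The ratio of group means over WT was 0.55 on the log2 scale with that embryo and -0.54 without it, and the fitted value was -0.62 ± 0.65 (SE, FDR = 0.66). At these counts differences of several fold could not be told from the spread.

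Ripply2 encodes the factor that ends Mesp2 and Tbx6 activity at the boundary. Its read pairs numbered 1, 1, 2 and 0 in WT, 6, 4, 5 and 6 in Kat6a-/-, 3, 17, 1 and 14 in Kat6b-/-, 13, 3, 0 and 0 in Kat6aE/E, 1, 5, 0 and 3 in Kat6bE/E, and 11, 8, 9 and 8 in Kat6aE/E;Kat6bE/E. In CPM the 4 Kat6aE/E;Kat6bE/E embryos ranged from 0.498 to 0.634 and the 4 Kat6a-/- embryos from 0.266 to 0.529, all above the WT embryos at 0 to 0.169. The exact permutation test gave p = 0.0286 in each of these 2 comparisons, the smallest value possible, among 80 such tests over the 10 genes and 8 pairs of genotypes. When no filter on low counts was applied the fitted log2 difference was 2.41 ± 0.89 (SE) in Kat6aE/E;Kat6bE/E with FDR = 0.17 and 1.51 ± 0.96 (SE) in Kat6a-/- with FDR = 0.533. WT replicates 1 and 4, with 1 and 0 read pairs, were among the 5 embryos with little Tbx6, and the other 2 WT embryos had 1 and 2. All 4 WT embryos were thus low in Ripply2, at a depth of 2 read pairs or fewer.

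**Figure D2:**
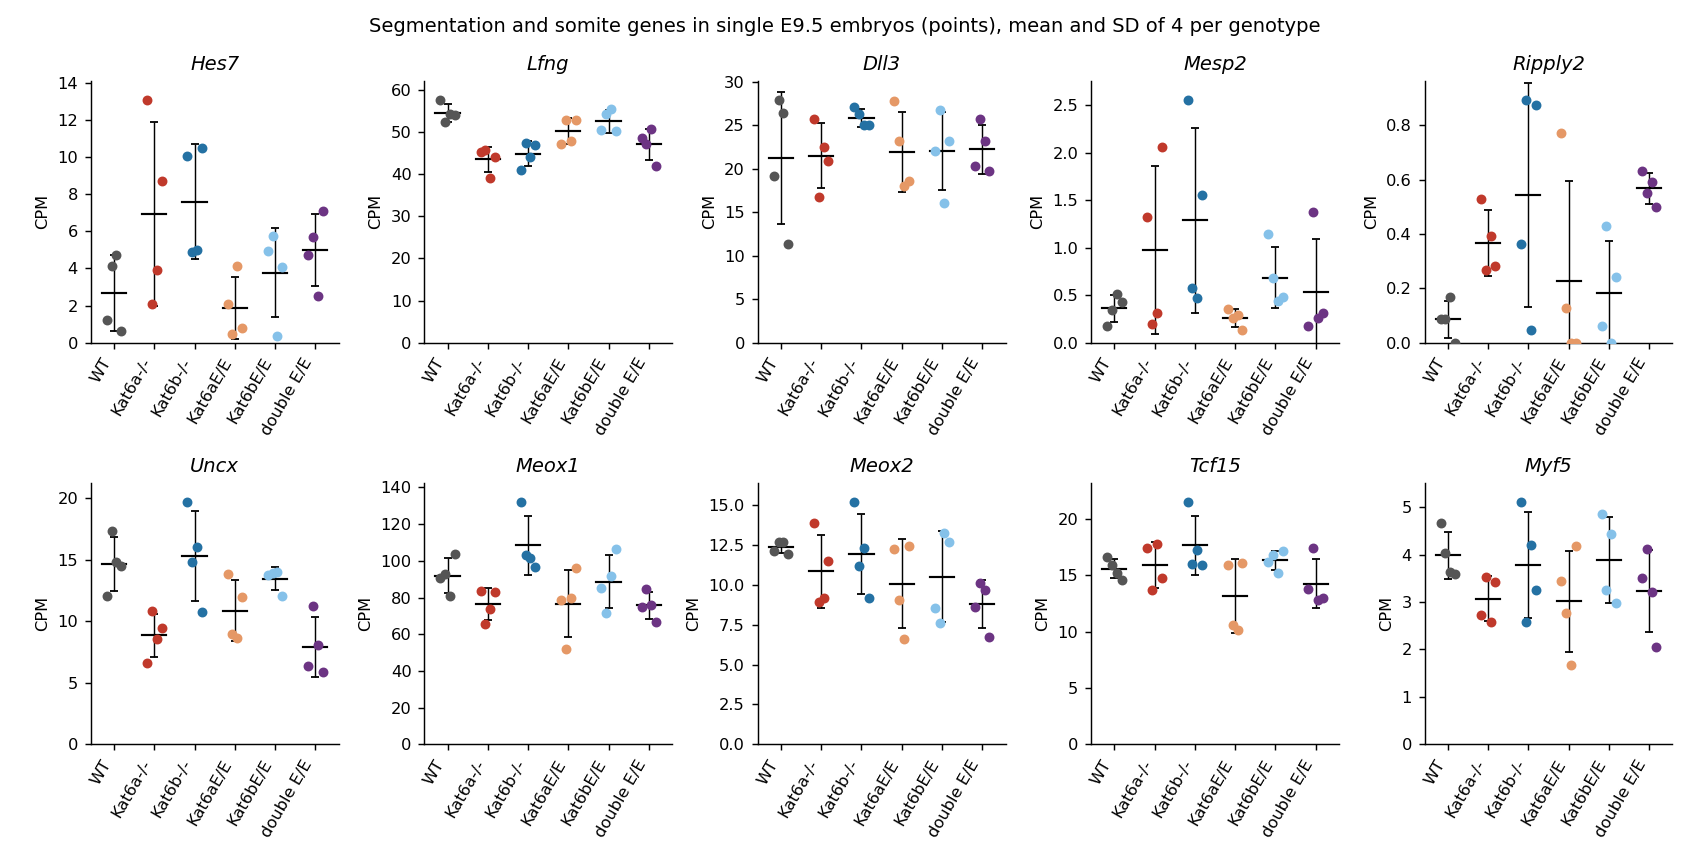
CPM (vertical, linear from 0) of the 10 genes in 6 genotypes, where double E/E is Kat6aE/E;Kat6bE/E. Points are single embryos (n = 4 per genotype), horizontal bars means and vertical bars SD. Lfng was lower in all Kat6a-/- and Kat6b-/- embryos than in any WT embryo, Uncx was lower in all Kat6a-/- and double E/E embryos, and Hes7 and Mesp2 varied several fold within a genotype.

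Uncx encodes the homeodomain factor that maintains the posterior compartment of each somite, from which pedicles and proximal ribs form. It was at 12, 17.3, 14.8 and 14.47 CPM in WT and at 6.39, 11.3, 8.06 and 5.86 CPM in Kat6aE/E;Kat6bE/E, with no overlap. The double mutant embryos had 94 to 164 read pairs for Uncx and the WT embryos 139 to 270. Uncx fell in Kat6aE/E;Kat6bE/E by 1.0 ± 0.18 (SE) on the log2 scale, to 0.499 of the WT level (FDR = 0.00557, limma moderated test). Kat6a-/- embryos were at 6.62, 10.8, 8.52 and 9.46 CPM and also lay below every WT embryo, with a fitted difference of -0.57 ± 0.16 (SE) that missed the threshold (FDR = 0.0588). Kat6aE/E embryos were at 13.8, 9.01, 8.61 and 12 CPM and overlapped WT, with -0.43 ± 0.15 (SE) and FDR = 0.32. Kat6bE/E embryos at 12.1 to 14 CPM and Kat6b-/- embryos at 10.8 to 19.7 CPM overlapped WT, with fitted differences of -0.04 ± 0.15 (SE, FDR = 0.999) and 0.09 ± 0.15 (SE, FDR = 0.881).

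The order of the mean Uncx levels was Kat6aE/E;Kat6bE/E (7.9 ± 2.44 CPM, SD, n = 4), Kat6a-/- (8.86 ± 1.77), Kat6aE/E (10.9 ± 2.5), Kat6bE/E (13.4 ± 0.932), WT (14.7 ± 2.17) and Kat6b-/- (15.3 ± 3.67), and the neighbours in this order overlapped. Kat6aE/E;Kat6bE/E was not called against Kat6a-/- (-0.43 ± 0.20, SE, FDR = 0.461, with -0.17 as the ratio of group means), nor was Kat6aE/E against Kat6a-/- (0.14 ± 0.17, SE, FDR = 0.751). The departure of the double mutant from the sum of the 2 single point mutants was -0.53 ± 0.25 (SE) with FDR = 0.77, and it reached -0.33 with single embryos left out (without Kat6aE/E replicate 1). The 4 surrogate variables of the model followed replicate 2 of Kat6aE/E;Kat6bE/E closely (leverage 0.88). This embryo had the highest Uncx of its group, and without it the ratio of group means went from -0.89 to -1.11. In limma without surrogate variables the Uncx estimate was -0.88 with FDR = 0.127. A limma fit of only the WT and Kat6aE/E;Kat6bE/E libraries, also without surrogate variables, gave -0.94 with FDR = 0.217. The size was similar in both and the call was lost. Both fits called 0 of all genes in this comparison, against 413 of 14183 in the main fit. DESeq2, also fitted without surrogate variables, kept Uncx called and called 213 of all genes. Without the 5 embryos low in Tbx6 the Uncx estimate was -1.02 with FDR = 0.0203. Some genes of other tissues differed in the same embryos: the heart muscle gene Myl3 was at 54.6 to 67.2 CPM in Kat6aE/E;Kat6bE/E against 33.5 to 42.6 in WT (0.60 ± 0.11, SE, FDR = 0.00592) and Tnnt2 also rose (0.36 ± 0.09, SE, FDR = 0.0415). These were the only 2 called of 12 cardiac genes, whose summed CPM overlapped WT. The fitted value was below 0 for 2 of the 12, with a median of 0.20. The part of tissue makeup in the Uncx result was not tested. In the 3 litters shared with WT, Uncx was at 10.8 CPM in a Kat6a-/- embryo and 12 in its WT littermate, 14.8 in a Kat6b-/- embryo and 14.8 in its WT littermate, and 13.8 in a Kat6aE/E embryo and 17.3 in its WT littermate.

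Markers of the anterior compartment and of the ventral sclerotome were set beside Uncx. Tbx18, the marker of the anterior compartment, was at 15.7 to 23.6 CPM in WT, 15.5 to 21.6 in Kat6a-/- and 16.9 to 23.4 in Kat6aE/E;Kat6bE/E, with log2 differences of -0.14 ± 0.12 (SE, FDR = 0.62) and -0.01 ± 0.12 (SE, FDR = 0.967). The groups overlapped for Tbx18. Pax1, a factor of the ventral sclerotome, was at 27.7, 28.8, 24.6 and 32.3 CPM in WT, 10.9, 13.3, 13.8 and 18.5 in Kat6a-/- and 16.6, 21.9, 15 and 14.1 in Kat6aE/E;Kat6bE/E. Neither mutant overlapped WT for Pax1, but with -0.84 ± 0.26 (SE, FDR = 0.104) and -0.93 ± 0.27 (SE, FDR = 0.0849) neither difference was called.

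Meox1 and Meox2 encode homeodomain factors that act together in the sclerotome and early muscle. Meox1 was at 90.6, 92.9, 80.7 and 104 CPM in WT and at 75.1, 84.8, 76.0 and 66.7 CPM in Kat6aE/E;Kat6bE/E, where 1 mutant embryo lay above the lowest WT embryo. The fitted difference was -0.42 ± 0.14 (SE, FDR = 0.121). Meox2 was at 12.1, 12.7, 12.7 and 12 CPM in WT, a narrow range, and at 8.58, 10.1, 9.7 and 6.73 CPM in Kat6aE/E;Kat6bE/E, without overlap, and the fitted difference of -0.58 ± 0.23 (SE) was not called (FDR = 0.178). Neither gene was called in another genotype. Meox1 was highest in Kat6b-/-, at 96.7 to 132 CPM, with 0.10 ± 0.14 (SE, FDR = 0.845). Tcf15, also named Paraxis, which keeps somites epithelial, was at 14.6 to 16.6 CPM in WT and 12.8 to 17.5 in Kat6aE/E;Kat6bE/E, with -0.26 ± 0.12 (SE, FDR = 0.265). In Kat6a-/- its difference was 0.01 with a 95% confidence interval from -0.23 to 0.24. Myf5, which specifies the first myotome cells, was at 4.67, 4.03, 3.64 and 3.59 CPM in WT and 2.74, 3.52, 2.58 and 3.42 CPM in Kat6a-/-. These Myf5 groups did not overlap, but the fitted difference was -0.26 ± 0.24 (SE, FDR = 0.645), and in Kat6aE/E it was -0.47 ± 0.23 (SE, FDR = 0.51).

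**Figure D3:**
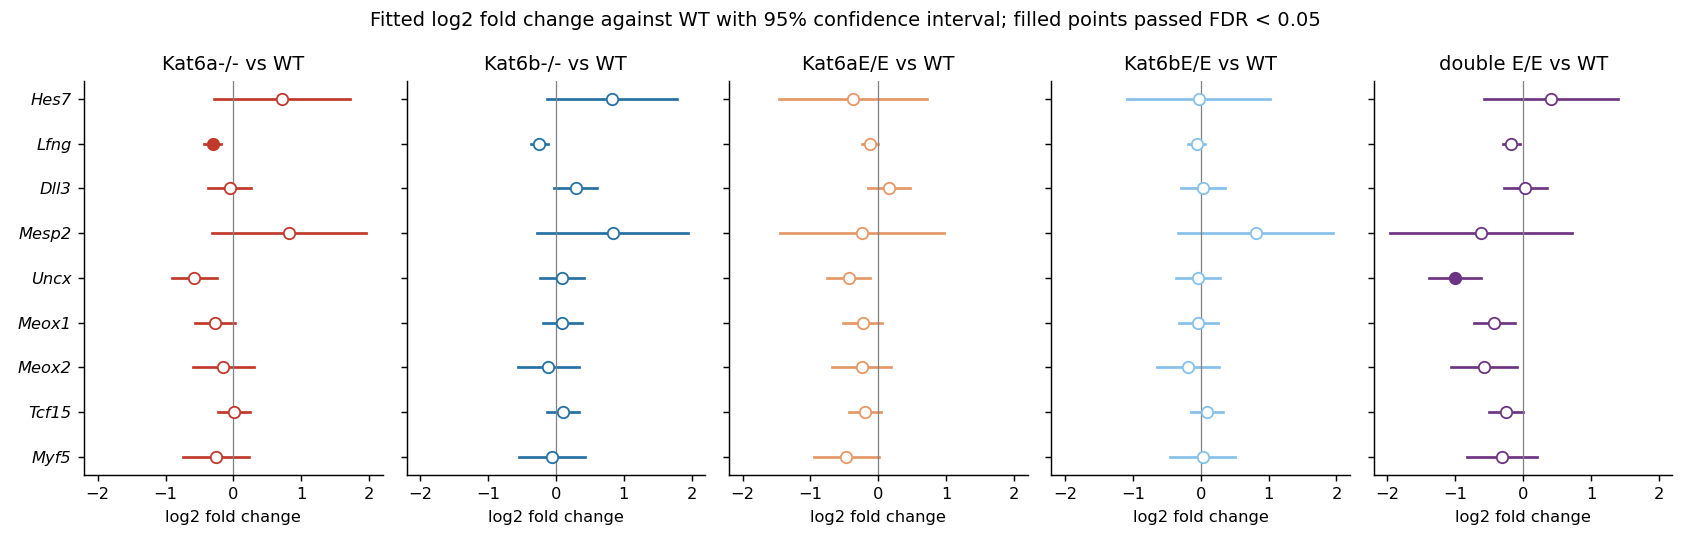
Fitted log2 fold change against WT (horizontal) for the 9 genes kept by the filter, with 95% confidence intervals, in 5 genotypes of 4 embryos each. Filled points passed FDR < 0.05, which were Lfng in Kat6a-/- at -0.30 and Uncx in double E/E (Kat6aE/E;Kat6bE/E) at -1.0.

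Counted over the 9 genes tested, 1 was called in Kat6a-/- (Lfng) where 2.64% of all 14183 genes were called, and 1 in Kat6aE/E;Kat6bE/E (Uncx) where 2.91% were. None was called in Kat6b-/-, Kat6aE/E or Kat6bE/E, where 0.508%, 0.275% and 0% of all genes were called. At an unadjusted p under 0.05 there were 1, 2 and 0 of the 9 in these 3 genotypes, and edgeR and DESeq2 also called 0. The median log2 fold change of the 9 genes was -0.15 in Kat6a-/-, 0.10 in Kat6b-/-, -0.24 in Kat6aE/E, -0.03 in Kat6bE/E and -0.31 in Kat6aE/E;Kat6bE/E, while the median of all genes tested lay between -0.0043 and 0.00054 in these comparisons. All 5 comparisons share the 4 WT libraries. Across the 6 genotypes together, Uncx and Lfng were called for any difference, 2 of 9 against 3.25% of all genes. Values of 4 mutant and 4 WT embryos did not overlap for 3 of the 9 genes in Kat6a-/- (Lfng, Uncx and Myf5; 11.9% of all genes), 2 in Kat6b-/- (Lfng and Hes7; 6.61%), 3 in Kat6aE/E;Kat6bE/E (Lfng, Uncx and Meox2; 7.31%), and 0 in Kat6aE/E (4.94%) and Kat6bE/E (2.31%).

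Point mutants were compared with the deletions directly. None of the 9 genes was called in Kat6aE/E against Kat6a-/- (1.6% of all genes called), in Kat6bE/E against Kat6b-/- (0.0353%) or in Kat6aE/E;Kat6bE/E against Kat6a-/- (0.00705%), and none departed from additivity (0%). At an unadjusted p under 0.05 the counts were 2, 1, 3 and 1, and edgeR and DESeq2 called 0 in each. Lfng was 0.18 ± 0.06 (SE) higher on the log2 scale in Kat6aE/E than in Kat6a-/- (FDR = 0.153) and 0.19 ± 0.06 (SE) higher in Kat6bE/E than in Kat6b-/- (FDR = 0.369). In both pairs the 4 point mutant embryos lay above the 4 deletion embryos, and the exact permutation test gave p = 0.0286, its smallest value. These tests were among 80 run, and the share of all genes without overlap was not taken for these pairs. The 95% confidence intervals were 0.05 to 0.30 and 0.06 to 0.32.

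The other genes of the process were described as 6 lists. Of 17 Notch pathway genes, 1 fell in Kat6a-/- and 2 fell and 1 rose in Kat6aE/E;Kat6bE/E. Notch1, the receptor, was lower in both, by -0.31 ± 0.06 (SE, FDR = 0.00412) and -0.27 ± 0.06 (SE, FDR = 0.0144). The Notch target Heyl fell in Kat6aE/E;Kat6bE/E (-0.59 ± 0.14, SE, FDR = 0.0204) and the target Hes1 rose (0.34 ± 0.07, SE, FDR = 0.01). The list medians were -0.05 and -0.06. Of 15 Wnt and FGF target genes, Tnfrsf19, a receptor of the TNF family, rose in both genotypes, by 0.27 ± 0.05 (SE, FDR = 0.0059) and 0.32 ± 0.05 (SE, FDR = 0.0038), and none fell.

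Of 18 tail bud and presomitic genes, 1 rose and 1 fell in Kat6a-/-, 2 rose in Kat6b-/- and 1 rose in Kat6aE/E;Kat6bE/E. Rspo3, a secreted enhancer of Wnt signalling, rose in all 3, by 0.41 ± 0.11 (SE, FDR = 0.0408), 0.57 ± 0.11 (SE, FDR = 0.0153) and 0.59 ± 0.10 (SE, FDR = 0.00498). Wnt5a, a ligand of the tail bud, rose in Kat6b-/- by 0.40 ± 0.07 (SE, FDR = 0.00474), and Hoxb1 fell in Kat6a-/- (-0.43 ± 0.12, SE, FDR = 0.044). The list medians were 0.32 in Kat6a-/-, 0.49 in Kat6b-/- and 0.49 in Kat6aE/E;Kat6bE/E, against -0.08 in Kat6aE/E and 0.08 in Kat6bE/E, and the first 3 genotypes are those without an embryo low in Tbx6. Without the 5 embryos the medians were 0.03, 0.23 and 0.16, with -0.15 in Kat6aE/E and 0.02 in Kat6bE/E. Rspo3 was then at 0.21 (FDR = 0.392), 0.31 (FDR = 0.492) and 0.32 (FDR = 0.145) and Wnt5a in Kat6b-/- at 0.28 (FDR = 0.564), so these 4 calls were lost. With all embryos Tbx6 itself was not called, with 0.72 ± 0.48 (SE, FDR = 0.495) in Kat6a-/-, 0.94 ± 0.46 (SE, FDR = 0.43) in Kat6b-/- and 0.88 ± 0.45 (SE, FDR = 0.322) in Kat6aE/E;Kat6bE/E. Msgn1 was not called either, with 2.06 ± 0.91 (SE, FDR = 0.247) in Kat6aE/E;Kat6bE/E.

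Of 14 sclerotome genes, 1 fell in Kat6a-/- and 2 in Kat6aE/E;Kat6bE/E, and none rose. Foxc2, a forkhead factor of sclerotome and vessels, fell in both (-0.56 ± 0.10, SE, FDR = 0.00352 and -0.37 ± 0.10, SE, FDR = 0.0445), and Nkx3-2, which acts downstream of PAX1, fell in Kat6aE/E;Kat6bE/E (-0.94 ± 0.24, SE, FDR = 0.0332). The fitted value was below 0 for 12 and 14 of the 14 genes, with medians of -0.15 and -0.17. It was also below 0 for 13 genes in Kat6aE/E (median -0.15), 13 in Kat6bE/E (-0.06) and 7 in Kat6b-/- (-0.01). All these comparisons share the 4 WT libraries. Of 10 boundary and polarity genes tested, Pcdh8, a protocadherin of the forming somite, fell in Kat6a-/- (-0.40 ± 0.09, SE, FDR = 0.0238). Of 21 dermomyotome and myotome genes tested, Met, the receptor needed by migrating muscle precursors, rose in Kat6a-/- (0.50 ± 0.10, SE, FDR = 0.00744), as did Six4 (0.25 ± 0.07, SE, FDR = 0.0484). None of the genes of these 6 lists was called by limma in Kat6aE/E or Kat6bE/E, where, in the order of the lists above, 1, 4, 2, 2, 1 and 4 genes and 1, 2, 0, 0, 0 and 1 genes had an unadjusted p under 0.05. In neither genotype did edgeR or DESeq2 call any of the list genes that limma called in the other genotypes. Tbx6, Msgn1 and Tbx18 were not read in those 2 fits. Markers of other tissues moved as well. Of 12 cardiac genes 3 rose and 1 fell in Kat6a-/- and 2 rose in Kat6aE/E;Kat6bE/E, where their sum was 1112 to 1421 CPM against 785 to 1204 CPM in WT. In Kat6a-/- the sum of 8 endothelial genes was 244 to 351 CPM against 367 to 393 CPM in WT with 0 called by limma and 6 at an unadjusted p under 0.05. None of the erythroid, visceral endoderm and trophoblast marker genes tested was called in any comparison with WT, and at most 1, 2 and 1 of them had an unadjusted p under 0.05. The part of such shifts in tissue makeup in the values above was not tested.

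The list calls differed in how well they held when the fit was changed in 14 ways or each of the 24 embryos was left out, and none reversed. In Kat6a-/-, Met and Tnfrsf19 were called in all 14 fits and Foxc2 in 13, and with any embryo left out. Notch1 was called in 10 of the 14 and with any embryo left out, Pcdh8 in 11 and with 18 of the 24, Rspo3 in 8 and 16, Hoxb1 in 8 and 11, and Six4 in 5 and 5. In Kat6aE/E;Kat6bE/E, Tnfrsf19 was called in 11 and Rspo3 in 10 of the 14 and both with any embryo left out, while Hes1 was called in 10 and 22, Heyl in 10 and 20, Nkx3-2 in 10 and 18, Notch1 in 7 and 20, and Foxc2 in 4 and 6. In limma without surrogate variables none of these 7 double mutant calls passed, with FDR from 0.121 for Tnfrsf19 to 0.649 for Foxc2. That fit called 0 of all genes in Kat6aE/E;Kat6bE/E against WT. DESeq2, also fitted without surrogate variables, called 213 of all genes there. It gave FDR = 0.00523 for Tnfrsf19, 0.0141 for Heyl, 0.0145 for Hes1 and 0.0226 for Rspo3. For Nkx3-2, Notch1 and Foxc2 it gave 0.0556, 0.418 and 0.555. In Kat6b-/-, Wnt5a was called in 9 and 22 and Rspo3 in 8 and 23, and leaving out WT replicate 4, an embryo low in Tbx6, gave FDR = 0.105 for Wnt5a and for Rspo3.

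**Figure D4:**
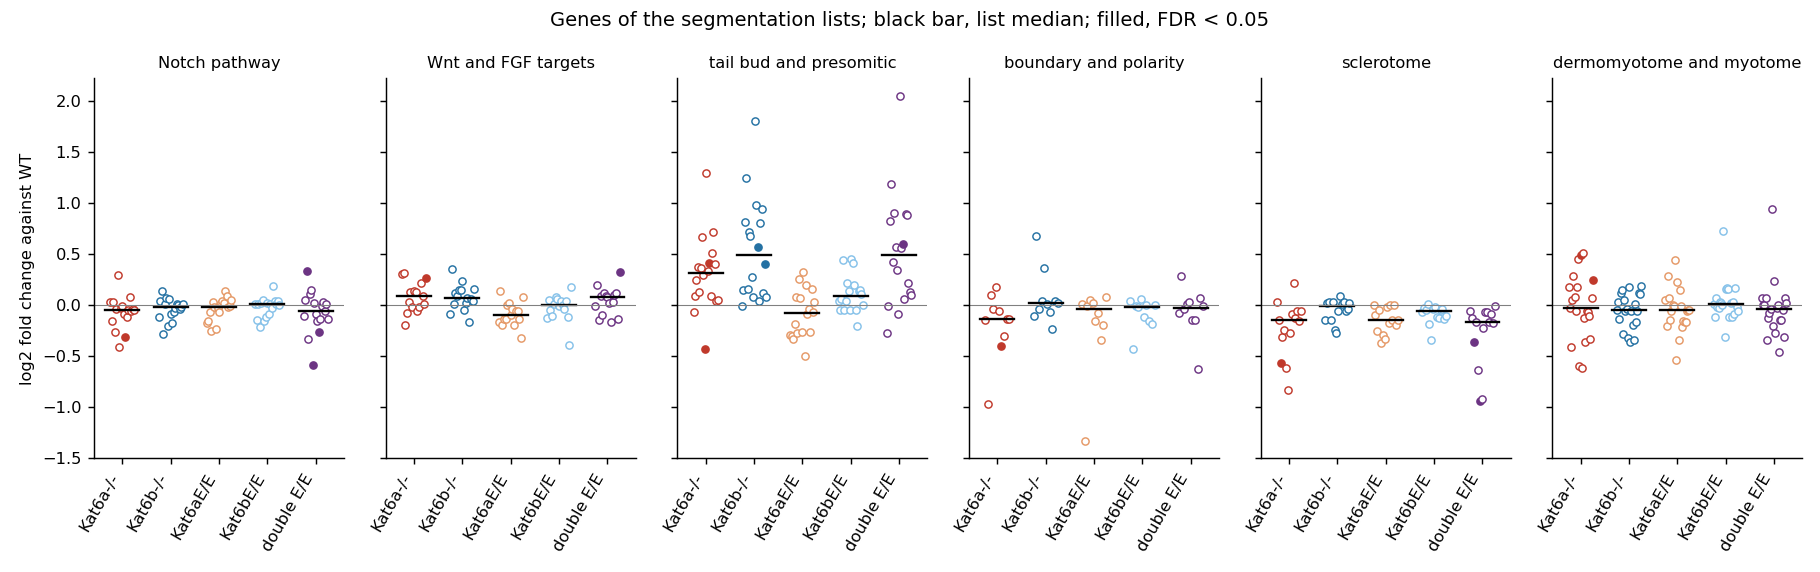
Fitted log2 fold change against WT (vertical) of each tested gene in 6 lists of segmentation and somite genes, by genotype (horizontal, double E/E is Kat6aE/E;Kat6bE/E); points are genes, black bars list medians, and filled points passed FDR < 0.05. The tail bud and presomitic list had medians of 0.32, 0.49 and 0.49 in Kat6a-/-, Kat6b-/- and double E/E and -0.08 and 0.08 in Kat6aE/E and Kat6bE/E.

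Likeness between genes was measured as Pearson's r of log2 CPM over the 24 embryos, which share their libraries and normalisation. Among all tested genes Hes7 was most like Tbx6 (r = 0.94), T (r = 0.94) and Arl4d (r = 0.92). Since 5 embryos formed a separate low group, r was also taken over the other 19, where, on log2(CPM + 0.5), it was 0.74 for Hes7 with Tbx6 and 0.73 with T, but 0.11 with Msgn1 against 0.77 over all 24. Uncx was most like Lhx3 (r = 0.81), Oxtr (r = 0.79) and Pax1 (r = 0.78). Lfng was most like Rfx4 (r = 0.84), Sfrp2 (r = 0.84) and Apba2 (r = 0.83). Tcf15 was most like Hoxb8 (r = 0.84), Spred2 (r = 0.82) and Aldh1a2 (r = 0.80), Meox1 like Pced1b (r = 0.79) and Hoxb9 (r = 0.77), and Meox2 like Cdh15 (r = 0.72), Dcp1a (r = 0.68) and Lhx9 (r = 0.67). Dll3 was most like Spock2 (r = 0.80), Hoxa11 (r = 0.79) and Antxr1 (r = 0.76), Myf5 like Sema5a (r = 0.79), Fndc5 (r = 0.74) and Tshz1 (r = 0.73), and Mesp2, at its low counts, like Gpc3 (r = 0.78), D830030K20Rik (r = 0.73) and Cd276 (r = 0.69).

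Between the 10 genes themselves r exceeded 0.6 in 6 pairs, 5 of them among the somite factors. These were r = 0.66 for Meox1 and Tcf15, 0.64 for Meox1 and Meox2, 0.62 for Uncx and Myf5, 0.62 for Meox2 and Tcf15 and 0.61 for Uncx and Meox1. With genotype means removed these became 0.56, 0.61, 0.62, 0.61 and 0.30, so the value for Uncx and Meox1 changed most of these 5. The other pair was Hes7 and Mesp2, with r = 0.66, and 0.54 with genotype means removed. Hes7 and Lfng ran in opposite directions, r = -0.61 and -0.43 with genotype means removed. Of the 15 protein-coding genes between Uncx and Lfng on chromosome 5, 12 were tested, and 1 was called in Kat6a-/- and 0 in each of the other 4 comparisons with WT, with medians from -0.07 to -0.00064.

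The E14.5 LSK libraries of 12270376 to 59216547 read pairs separated Lfng from the other 9 genes. Lfng was present in all 16, at 32.2 to 52.6 CPM of the whole library with 479 to 2252 read pairs. Meox2, Ripply2 and Myf5 had 0 read pairs in all 16 libraries, which allows up to 0.0507 to 0.244 CPM per library (3 read pairs, counting error only). Uncx and Meox1 had 2 read pairs in 1 library each. Tcf15 and Hes7 reached at most 32 and 39 read pairs, Mesp2 at most 23 and Dll3 at most 4. No test was run on these libraries.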

How the data were processed

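Libraries were made with an unstranded poly(A) kit. Read pairs were aligned to mm39 (GRCm39) with Rsubread and counted per RefSeq gene with featureCounts by the authors, and the deposited files hold these raw counts, 1 file per library, without normalisation. Reads of genes that overlap on opposite strands cannot be told apart. Genotypes and litters were taken from the labels, and each library is a separate embryo. The E9.5 counts were restricted to protein-coding genes outside the Y chromosome by matching Entrez numbers to RefSeq (52 of 26411 did not match), filtered with filterByExpr and normalised by TMM. Following the study's methods, 4 surrogate variables (wsva) were added to the genotype means, and voomLmFit of edgeR 4.0.16 with limma 3.58.1 in R 4.3.3 was fitted to all 24 embryos with litter as random block (17 litters, correlation 0.107) and robust empirical Bayes. P-values were adjusted by Benjamini-Hochberg over 14183 genes, and FDR under 0.05 counted as called. Errors are SE of the fit or SD over embryos, as named. Single genes were also compared by exact two-sided permutation of log2(CPM + 0.1), 4 against 4. The genes, lists and comparisons were chosen with earlier results of these data known. All 10 genes were named, and of each list the genes called against WT, at most 4 per list and comparison, plus Tbx6, Msgn1, Tbx18 and Pax1; T was added after its values were seen. For each gene in the fit the 3 genes most like it were named, except 1 that is not reported here. Libraries of a group differed from each other by more than counting noise (mean chi-square per gene 2.28 to 31.8 over 36 pairs). The fit was tested on simulated counts. Alternatives were other numbers and weights of surrogate variables, no litter block, a replicate block, edgeR and DESeq2 (1.42.0) tests, other size factors, no filter, all gene types, only the genotypes compared, and each embryo left out. DESeq2 and the fits of only the genotypes compared used no surrogate variables. Deviations of same-numbered embryos had r from -0.23 to 0.31 over 60 pairs, above 0.1 in 17. In 0 pairs of genotypes did all 4 replicates exceed 0.1, so replicate numbers were not taken as pairs. WT replicate 4 had r from 0.11 to 0.31 with replicate 4 of the other genotypes. The 95% confidence intervals come from the fit and include the spread between embryos, while the floors for genes without reads cover counting error only.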

Additional observations from a re-analysis of the deposited data

Results flagged for a closer look

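Of 60 sets of 4 values (10 genes in 6 genotypes), 3 held an embryo far from the others by Dixon's criterion, which chance alone gives in about 1 of 20 sets. Uncx in Kat6bE/E replicate 4 was 12.1 CPM with the other 3 embryos at 13.7 to 14 CPM. Mesp2 in Kat6aE/E;Kat6bE/E replicate 2 was 1.38 CPM with the others at 0.173 to 0.311 CPM. Ripply2 in Kat6aE/E replicate 1 was 0.772 CPM, or 13 read pairs, with the others at 0 to 0.129 CPM.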

How the results depend on the processing

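The 17 differences in single genes with an unadjusted p under 0.05 kept their direction in all 661 recomputed values. Of these values, 26 newly passed and 4 lost the call. Among the 26 are exact permutation tests at an unadjusted p = 0.0286, counted as passing in place of an FDR. Examples are Meox2 and Lfng in Kat6aE/E;Kat6bE/E against WT, which no fit called. In Kat6a-/- against WT the 1 gene called, Lfng, was joined by Uncx (2 called) without the litter block, with edgeR and surrogate variables, with DESeq2, without the filter and with only the genotypes compared (Uncx FDR from 0.0204 to 0.0485). Uncx was also called without Kat6a-/- replicate 2 (FDR = 0.0462), Kat6aE/E replicate 1 (0.0345), 2 (0.0435) or 3 (0.04997) or Kat6aE/E;Kat6bE/E replicate 4 (0.048), so leaving out single embryos gave 1 to 2 called. In the embryos with Tbx6 at 2 CPM or more, an alternative chosen after seeing the data, 0 were called there and 1 (Uncx) across the 6 genotypes. In Kat6b-/-, 0 became 1 (Lfng) with 6 surrogate variables (FDR = 0.0443), all gene types (0.0299) and the replicate block (0.0315), which changed no other call, and leaving out single embryos gave 0 to 1, with Lfng called without Kat6aE/E replicate 1 (0.0468) or 2 (0.0463), Kat6bE/E replicate 1 (0.0496), 2 (0.048) or 4 (0.0397) or Kat6aE/E;Kat6bE/E replicate 3 (0.044) or 4 (0.0245). In Kat6aE/E;Kat6bE/E the 1 called, Uncx, became 0 in limma (0.127) and edgeR (0.0647) without surrogate variables. It also became 0 with only the genotypes compared (0.217), a limma fit that had no surrogate variables either. Each of these fits called 0 of all genes in this comparison, against 413 of 14183 in the main fit. DESeq2, also fitted without surrogate variables, kept Uncx called and called 213 of all genes. Leaving out single embryos gave 1 to 2, where Ripply2 passed the filter and was called without Kat6b-/- replicate 3 (0.0494). Across the 6 genotypes the 2 called became 0 in limma without surrogate variables (Uncx 0.0898, Lfng 0.0783), where 10 of all genes were called. Both stayed called in edgeR without surrogate variables and in DESeq2, where 125 and 708 of all genes were called. With single embryos left out, Lfng was lost without WT replicate 1 (0.072) or 2 (0.0559) or Kat6a-/- replicate 3 (0.056) or 4 (0.0599). Meox1 was called in addition to Uncx and Lfng across the 6 genotypes with DESeq2 (0.0233) and without Kat6aE/E replicate 2 (0.0498). The causes were not tested. With 4 embryos per genotype, Mesp2 at 2 to 44 and Ripply2 at 0 to 17 read pairs limit what can be told.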
